A study of Mus musculus with 12 samples.

Results

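The genes described here are 10 regulators and effectors of the integrated stress response: Atf4, Atf5, Ddit3, Atf3, Nupr1, Chac1, Trib3, Sesn2, Ddit4 and Ppp1r15a. They were picked by gene symbol, and all 10 were found in both deposited tables, among 45801 genes listed in at least 1 table (45706 in the blastocyst table and 13009 in the ES cell table). The choice was made with fold changes of these comparisons known, so the members' fold changes and p-values are a description and carry no test of the list. The study measured RNA in mouse blastocysts, the embryo before implantation, and in mouse embryonic stem (ES) cells, pluripotent cells grown from blastocysts. Each material has a group labelled Dis3L KO and a group labelled Dis3L WT, with 3 samples in each of the 4 groups. The Dis3l protein is the nuclease of an RNA exosome in the cytoplasm, a complex that trims RNA from the 3′ end. All blastocysts came from females given hormones to induce ovulation and were collected 96 hours after the hCG injection. Blastocyst libraries were made from single embryos with Tn5 transposase, whereas ES cell lines were kept with LIF on feeder fibroblasts that no longer divide, and their libraries were stranded and depleted of ribosomal RNA. The labels used here give no strain, allele, sex or line number. They do not say whether the ES cell samples are separate lines or cultures, so p-values there measure only the spread between those samples, which may be technical.

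The integrated stress response starts with kinases that phosphorylate the translation factor eIF2 when amino acids run short, when proteins misfold in the endoplasmic reticulum, when haem is low or when double-stranded RNA is present. Phosphorylated eIF2 slows most translation but lets the Atf4 message be translated, and ATF4 protein, a bZIP transcription factor, binds DNA as a dimer with C/EBP proteins and switches on genes of amino acid supply, redox balance and cell death. ATF5, DDIT3 (CHOP) and ATF3 are bZIP factors that act in the same pathway. CHAC1, TRIB3, SESN2, DDIT4, PPP1R15A and NUPR1 are among its effectors and feedback regulators.

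Promoter windows were searched for the letters that ATF4 dimers are known to bind, because several members had the same order of levels over the blastocyst libraries. The windows are RefSeq's (GRCm38.p6), from 250 bases before to 50 after each annotated start, and all 10 members matched, with 11 windows between them. The core of the C/EBP-ATF response element, TGATGNAA, was sought on both strands, and its reverse complement reads TTNCATCA. It was present in the windows of 4 of the 10 members, Atf3, Chac1, Nupr1 and Trib3, and in 4.51% of all 27025 genes with a window, or 3.97% of all 32851 windows of that length. The CRE-like letters TGACGNAA (reverse complement TTNCGTCA) were found in Atf3 and Chac1 and in 1.59% of all windows. The palindromic CRE, TGACGTCA, was found in Ppp1r15a and in 1.79% of all windows. None of the 7 matches in the members shared letters with another. A match describes these letters only and is not evidence of binding. The 5 stretches below are shown 5′ to 3′ on the gene's strand because they hold 6 of those matches, which are in capitals.
Chac1: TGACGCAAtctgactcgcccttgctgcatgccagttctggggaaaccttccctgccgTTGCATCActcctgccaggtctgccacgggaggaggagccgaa
Atf3: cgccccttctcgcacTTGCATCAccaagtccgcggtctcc
Nupr1: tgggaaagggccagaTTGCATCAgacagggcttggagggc
Ppp1r15a: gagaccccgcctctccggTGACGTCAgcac
Trib3: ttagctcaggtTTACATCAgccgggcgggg
The Chac1 stretch is chr2:119350992-119351091 (plus strand) and holds both kinds of letters, TGACGCAA at its first base and TTGCATCA further on. The Atf3 stretch is chr1:191183419-191183458 (minus strand), and that of Nupr1 is chr7:126625556-126625595 (minus strand). In both genes the TTGCATCA match begins 110 bases before the annotated start, and the remaining match, TTACGTCA in Atf3, begins 10 bases before it. The Ppp1r15a stretch is chr7:45526269-45526298 (minus strand) and ends at the base before the start. The Trib3 stretch is chr2:152344028-152344057 (minus strand) and lies just after the start. Among 28 other known ATF4 targets with a window, 9 held TGATGNAA: Aars, Asns, Fgf21, Gars, Herpud1, Pck2, Pycr1, Slc7a11 and Vldlr.

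The tables hold 1 result per gene and no value per sample. The authors' mean of normalised reads adds up whole reads, and 1 read of a given library always adds the same amount. In ES cells the reads of each member in each library could be solved from this mean alone. In blastocysts the mean of a member allowed up to 266021 solutions, and the deposited fold change and its standard error were used to pick 1. The blastocyst reads are therefore not independent of the deposited fold change. Normalised reads are these reads divided by the library's size factor, its relative depth. This gave 6 blastocyst libraries, 3 on each side of the comparison, and 4 ES cell libraries, 2 on each side, where the labels list 6 ES cell samples. The positive side holds the libraries in which a gene with a positive log2 fold change is higher. No source used here says which genotype is on which side, so sides are called positive and negative, libraries are numbered by falling size factor within a side, and no library was assigned to a sample or genotype. The blastocyst libraries held between 1024574 and 2408531 recovered reads and the ES cell libraries between 846114 and 1386626, over the genes that could be solved. Of all read values above 0, 95.9% were even in blastocysts and 49.8% in ES cells. Dis3l itself had 26, 8 and 0 reads on the positive and 10, 4 and 8 on the negative side in blastocysts, so it does not tell the sides apart there, and 14 and 8 against 39 and 39 in ES cells. The labelled tissue was checked against markers: all 8 pluripotency, 8 trophectoderm and 8 primitive endoderm markers had a mean above 0 in blastocysts, and 6 of 8 fibroblast markers were at 0.

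In blastocysts, the glutathione-degrading enzyme gene Chac1 was the member with the clearest difference, at 151 ± 86.1 normalised reads (SD, n = 3) on the positive side and 9.86 ± 6.72 (SD, n = 3) on the negative side. Atf4 itself was 1.54-fold higher in the mean of the positive side, with overlapping sides. Trib3, Ddit4, Atf5 and Nupr1 split the negative side, with library 2 as high as the positive side and libraries 1 and 3 low in most cases. Ddit3, Ppp1r15a and Sesn2 had no library close to 0, and Atf3 had almost no reads. Of the 8 members with an adjusted p-value in the authors' deposited table, 1 had a value under 0.05 (DESeq2 Wald test, Benjamini-Hochberg adjustment), where 0.0986% of all tested genes did and 0.0132% did so with a positive sign. Of the 10 log2 fold changes, 9 were positive, against 48.3% of all tested genes. These counts rest on the contrast that was known when the members were chosen, and nothing is read from them.

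**Figure D1:**
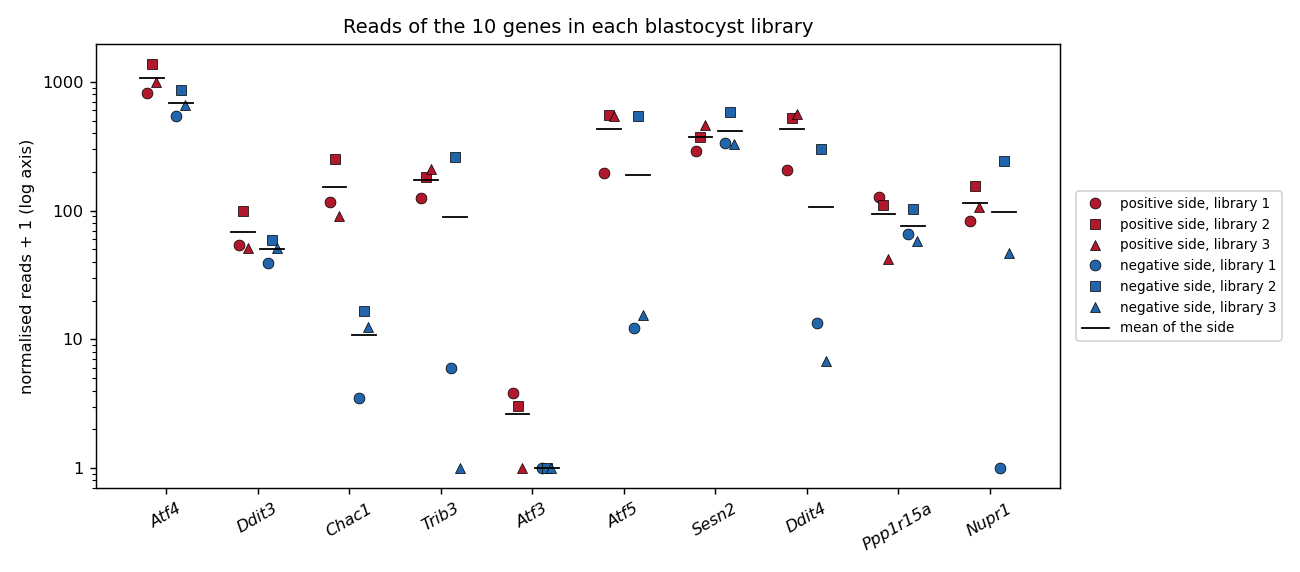
Normalised recovered reads plus 1 (log axis) of the 10 genes in the 6 blastocyst libraries; each point is 1 library, red for the positive and blue for the negative side, and the line is the mean of the 3 libraries of a side. Chac1 lies between 89.1 and 249.7 on the positive side and between 2.47 and 15.6 on the negative side, while Trib3, Atf5, Ddit4 and Nupr1 have 1 high negative library, number 2.

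Atf4 (ENSMUSG00000042406.7; chr15:80255184-80257540) encodes the transcription factor at the centre of the pathway. Its normalised reads were 824, 1372 and 1001 in positive libraries 1, 2 and 3 and 545, 863 and 662 in negative libraries 1, 2 and 3. The sides overlapped, because negative library 2 was above positive library 1. The authors' deposited table gave a log2 fold change of 0.63 (standard error, SE, 0.32), an unadjusted p of 0.0502 and an adjusted p of 0.806 (DESeq2 Wald test, Benjamini-Hochberg adjustment). Atf4 did not pass the threshold, and the log2 ratio of the recovered reads was 0.40 without positive library 2. Much of ATF4's control is at translation, which these RNA values do not measure.

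Atf5 (ENSMUSG00000038539.12; chr7:44812257-44816658), an ATF4 relative whose message is also translated under stress, was counted at 196, 555 and 542 normalised reads in the positive libraries against 11.1, 540 and 14.4 in the negative libraries. Negative libraries 1 and 3 were far below the other 4, and negative library 2 was level with positive libraries 2 and 3. The highest negative library thus held 48.5 times the normalised reads of the lowest. The log2 fold change in the authors' deposited table was 1.19 (SE 1.54), and the gene carries neither a p-value nor an adjusted p-value there. The log2 ratio of the recovered reads was 4.97 without negative library 2, 0.64 without negative library 1 and 0.64 without negative library 3.

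Ddit3 (ENSMUSG00000025408.13; chr10:127290774-127296288) encodes CHOP, the factor tied to cell death after prolonged stress. It had 52.8, 97.4 and 50.3 normalised reads in the positive libraries against 38.3, 58.0 and 50.4 in the negative libraries. Positive library 2 stood highest and the sides overlapped. Its log2 fold change in the authors' deposited table was 0.45 (SE 0.71), with an adjusted p of 0.947 by DESeq2's Wald test. Without positive library 2 the log2 ratio of the recovered reads was 0.075, and without negative library 1 it was 0.30.

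Atf3 (ENSMUSG00000026628.11; chr1:191170296-191218039), an immediate stress-induced bZIP factor, was nearly without reads: 4, 2 and 0 on the positive side and 0 in every negative library. Since blastocyst reads came mostly in pairs, 0 reads in a library allow up to 3 pairs or 6 reads, which is 3.71 to 8.63 normalised reads depending on its depth. No fold is given for it. A difference in Atf3 was not detectable at this depth.

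Nupr1 (ENSMUSG00000030717.7; chr7:126623249-126630861) encodes a small chromatin-associated stress protein. Its normalised reads were 81.4, 154 and 105 in the positive libraries against 0, 243 and 46.0 in the negative libraries. The highest and the lowest library were both on the negative side. The log2 fold change in the authors' deposited table was 0.24 (SE 1.89), and its adjusted p was 0.997 (DESeq2 Wald test). Leaving out negative library 2 raised the log2 ratio of the recovered reads to 2.25, and leaving out negative library 1 turned it to −0.34.

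Chac1 (ENSMUSG00000027313.3; chr2:119351229-119354381) encodes a cytosolic enzyme that breaks down glutathione and is a textbook ATF4 target. The recovered reads were 162, 246 and 78 in the positive libraries against 4, 14 and 8 in the negative libraries, which is 116, 249.7 and 89.1 against 2.47, 15.6 and 11.5 normalised reads. Every positive library was above every negative library, and the lowest positive library exceeded the highest negative library several-fold. The mean was 15.4-fold higher on the positive side, a size that rests on few negative reads. Negative library 1 was below the level that 6 reads give there (3.71 normalised reads). Negative libraries 2 and 3 were above theirs (6.69 and 8.63). The authors' deposited table listed its mean as 80.7, with a log2 fold change of 3.99 (SE 0.80) and an adjusted p of 0.00213 (DESeq2 Wald test, Benjamini-Hochberg adjustment). Chac1 was 1 of 10 members whose sides did not overlap with the positive side higher, where 4.66% of the 14422 tested genes with recovered reads showed that order. Over the 6 leave-outs of 1 library, the log2 ratio of the recovered reads ran from 3.25 (without positive library 2) to 4.25 (without negative library 2).

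Trib3 (ENSMUSG00000032715.9; chr2:152337422-152344032), a pseudokinase gene that ATF4 and CHOP induce and that feeds back on them, had 124, 181 and 208 normalised reads in the positive libraries against 4.95, 261 and 0 in the negative libraries. The highest library of all 6 was negative library 2, while negative library 3 had no read, which allows up to 8.63 normalised reads. The authors' deposited table gave a log2 fold change of 0.95 (SE 2.04), and its adjusted p was 0.974 (DESeq2 Wald test). The log2 ratio of the recovered reads was 5.63 without negative library 2, 0.39 without negative library 1 and 0.36 without negative library 3. The first value rests on 8 and 0 reads in negative libraries 1 and 3 and on the pseudocount of 1, so it has no firm size.

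Ddit4 (ENSMUSG00000020108.3; chr10:59949675-59951770) encodes REDD1, an inhibitor of the growth kinase complex mTORC1. It had 206, 522 and 565 normalised reads in the positive libraries against 12.4, 301 and 5.75 in the negative libraries. Negative library 2 was above positive library 1, and the other negative libraries were far below all 4. Within the negative side, the highest library was 52.3 times the lowest, negative library 3. That library held 4 reads, below the 6 reads that a library with 0 reads allows, so the ratio has no firm size. The log2 fold change in the authors' deposited table was 2.02 (SE 1.49), the adjusted p was 0.811 (DESeq2 Wald test), and the log2 ratio without negative library 2 was 5.42. The last value rests on 20 and 4 reads in negative libraries 1 and 3, so it has no firm size either.

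Sesn2 (ENSMUSG00000028893.8; chr4:132492032-132510501), a leucine sensor gene that also restrains mTORC1, had 290, 371 and 459 normalised reads in the positive libraries against 335, 578 and 328 in the negative libraries. It was the only member with a negative log2 fold change in the authors' deposited table, −0.15 (SE 0.38), and its adjusted p was 0.988 (DESeq2 Wald test). The sides overlapped, and the sign became positive (0.17) when negative library 2 was left out.

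Ppp1r15a (ENSMUSG00000040435.10; chr7:45522916-45526268) encodes GADD34, the subunit that directs a phosphatase to eIF2 and so ends the response. Normalised reads were 127, 110 and 41.1 in the positive libraries against 64.3, 103 and 57.5 in the negative libraries. The lowest and the highest library were both positive. The log2 fold change in the authors' deposited table was 0.31 (SE 0.66), with an adjusted p of 0.974 (DESeq2 Wald test). Leaving out 1 library took the log2 ratio of the recovered reads from 0.011 (without positive library 1) to 0.65 (without positive library 3).

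**Figure D2:**
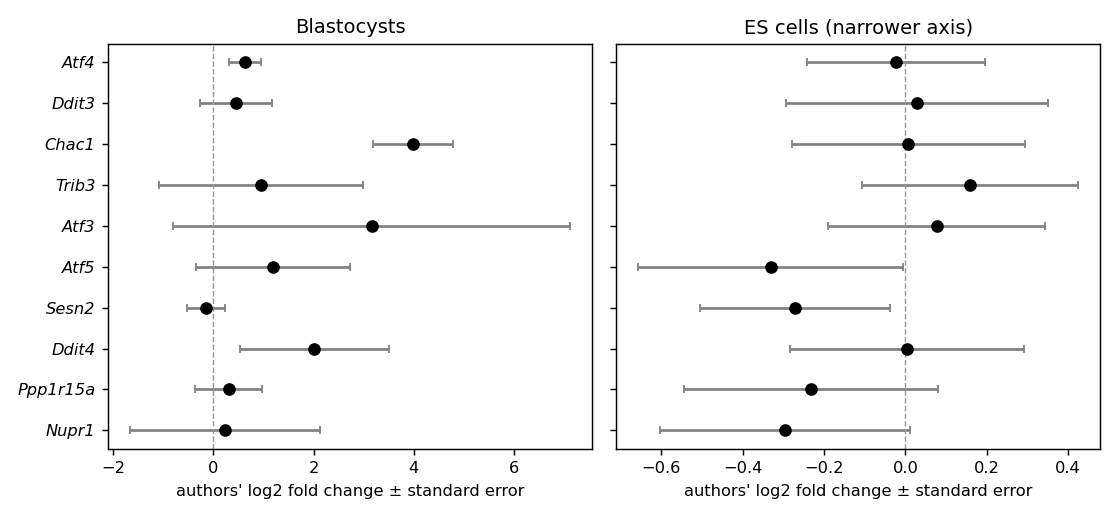
The authors' log2 fold change of the 10 genes in blastocysts (left) and ES cells (right, on a narrower axis), each point with its standard error as a bar; the dashed line is 0. In blastocysts Chac1 stands at 3.99 with an error of 0.80, and the errors of Trib3 and Nupr1 reach 2.04 and 1.89, while the blastocyst point of Atf3 rests on 6 reads and gives no size; in ES cells every member lies between −0.33 and 0.16.

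The members fell into different patterns over the 6 blastocyst libraries, a description made after the values were seen. Negative libraries 1 and 3 were the lowest 2 of the 6 in Atf4, Atf5, Nupr1, Chac1, Trib3 and Ddit4, which is 6 of 10 members, against 9.39% of tested genes with recovered reads. In Trib3, Ddit4, Atf5 and Nupr1 negative library 2 reached the range of the positive side. Chac1 was different, at 15.6 normalised reads in negative library 2 and at least 89.1 in each positive library. Chac1, Nupr1 and Trib3 hold TGATGNAA in the windows described above, while the windows of Atf4, Atf5 and Ddit4 hold none of the letters searched. Negative libraries 1 and 3 are the deepest and the shallowest of the 6 by recovered reads.

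Other genes of the pathway, taken from lists of known members, were read in the same way. Among 28 other ATF4 targets with recovered reads, 16 had negative libraries 1 and 3 as the lowest 2. This order was seen in 1 of 13 genes of protein folding in the endoplasmic reticulum, 4 of 18 genes of eIF2 control and 6 of 16 bZIP partner genes. Slc7a3, a carrier of cationic amino acids, had 188, 227 and 587 normalised reads in the positive libraries against 0, 513 and 5.75 in the negative libraries. Slc7a5, part of the leucine transporter LAT1, had 664, 1133 and 1495 against 136, 1333 and 239. Pycr1, an enzyme of proline synthesis, had 94.2, 223 and 309 against 29.7, 194 and 0. These 3 genes, named after their values were seen, thus shared the low negative libraries 1 and 3 and the high negative library 2 with Trib3, Ddit4 and Atf5. Vegfa, which encodes a blood vessel growth factor and was named in the same way, had 238, 298 and 295 against 2.47, 214 and 11.5.

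**Figure D3:**
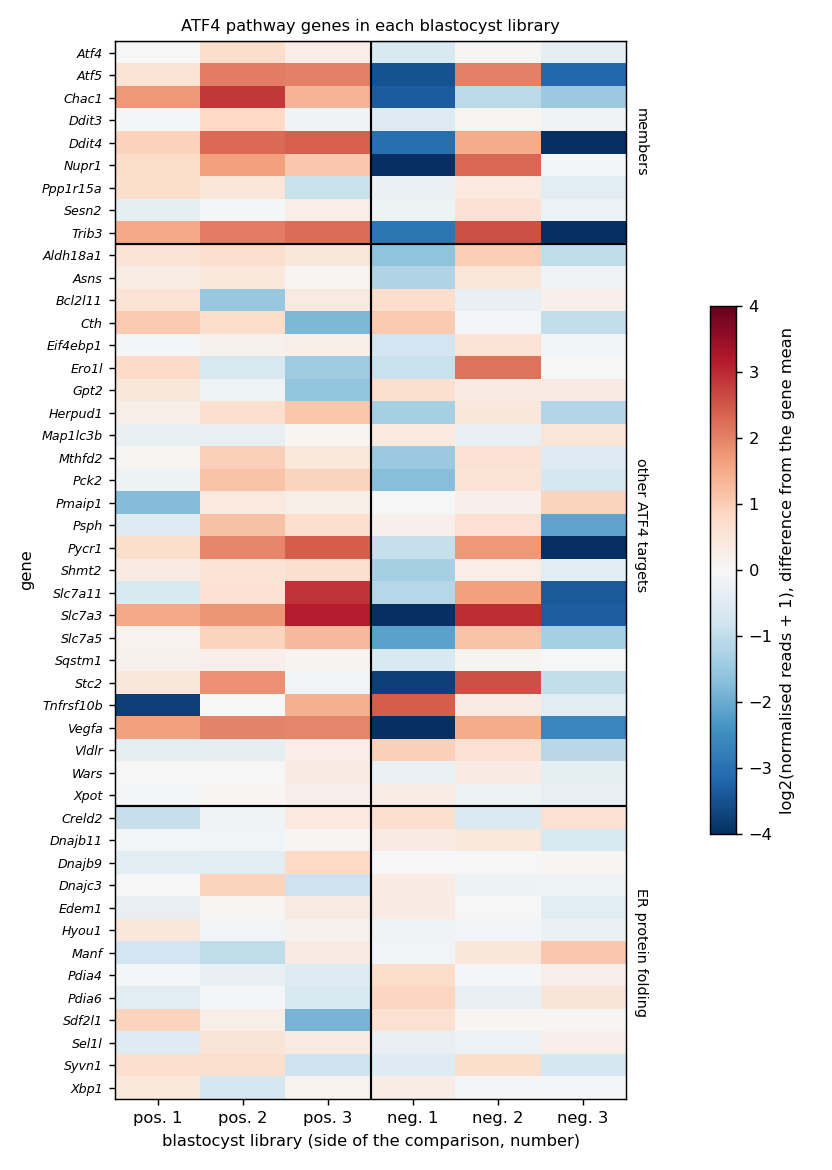
Difference of log2(normalised reads + 1) from the gene's mean over the 6 blastocyst libraries, for 9 members, 25 other ATF4 targets and 13 genes of protein folding in the endoplasmic reticulum with a mean of at least 20 and recovered reads; columns are libraries, with the vertical line between the positive and negative side, and the colours end at −4 and 4. Atf5, Ddit4, Trib3, Slc7a3, Slc7a5, Pycr1 and Vegfa are blue in negative libraries 1 and 3 and red in negative library 2, and among the protein folding genes Sdf2l1 is blue in positive library 3.

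Markers of embryo lineages were measured beside this pattern. The summed normalised reads of the 3 recovered trophectoderm markers of 8 (Krt7, Elf5 and Tfap2c) were 989, 1478 and 2281 in the positive libraries against 747, 1495 and 693 in the negative libraries. The sum was lowest in negative libraries 1 and 3, but of the 3 genes only Elf5 had that order, with 425, 583 and 827 against 189, 790 and 196. Krt7 had 177, 560 and 946 against 64.3, 408 and 199, and Tfap2c had 387, 335 and 507 against 494, 297 and 299. Over all 8 markers, 5 log2 fold changes were positive and 3 negative in the authors' deposited table, and none had a mean of 0. The 3 negative ones were Krt8 (−0.87, SE 0.36), Krt18 (−0.63, SE 0.29) and Cdx2 (−0.03, SE 0.27). Their reads were not solved, so the sum leaves them out, as it does Gata3 (0.52) and Eomes (0.51). Krt8 and Krt18 had means of 5505 and 7678, beside 392, 502 and 386 for Krt7, Elf5 and Tfap2c. Unadjusted p was under 0.05 in 2 positive and 2 negative markers, where 6.21% of all tested genes had such a p (DESeq2 Wald test). The 7 recovered pluripotency markers of 8 summed to 1752, 888 and 892 against 1964, 1721 and 2394. Over all 8, 2 log2 fold changes were positive and 6 negative in the authors' deposited table, with a median of −0.33. Of the 8, 3 had an unadjusted p under 0.05, all negative, where 3.53% of all tested genes did with that sign (DESeq2 Wald test). They were Tdgf1 (−1.75, SE 0.50), Nanog (−1.93, SE 0.73) and Pou5f1 (−1.21, SE 0.48), and none of the 8 had an adjusted p under 0.05. The pluripotency sum was highest in negative library 3 and lowest in positive libraries 2 and 3. The 6 recovered primitive endoderm markers of 8 summed to 1966, 1764 and 1387 against 1894, 2065 and 2238. Over the 7 tested, 3 log2 fold changes were positive and 4 negative in the authors' deposited table, with a median of −0.08. Of the 7, 1 had an unadjusted p under 0.05, where 6.21% of all tested genes did (DESeq2 Wald test). It was Sox7 (3.27, SE 1.07), with an adjusted p of 0.349 (DESeq2 Wald test, Benjamini-Hochberg adjustment). Single genes of that list differed in order: Sox7 had 198, 108 and 171 against 0, 46.8 and 2.88, and Gata6 had 619.6, 759 and 269.7 against 1238, 631 and 949. The part of lineage composition in the members' levels was not tested. In such bulk libraries, fewer cells of a type and less RNA per cell cannot be told apart.

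Among the 5 other pathway lists in blastocysts, the further ATF4 targets had the largest share of positive signs. Of 35 tested ATF4 targets, 26 had a positive and 9 a negative log2 fold change in the authors' deposited table, where 48.3% of all tested genes were positive. Their median was 0.59 beside −0.04 over all tested genes. None had an adjusted p under 0.05, and 4 had an unadjusted p under 0.05, all positive, where 6.21% of all tested genes did and 2.68% did with that sign (DESeq2 Wald test). They were Nars, an asparagine tRNA synthetase gene (log2 fold change 0.97, SE 0.36), Slc3a2, the heavy chain of amino acid transporters (0.95, SE 0.41), Herpud1, which acts in the degradation of endoplasmic reticulum proteins (1.16, SE 0.55), and Shmt2, a mitochondrial enzyme of serine and glycine metabolism (0.87, SE 0.42). Their adjusted p-values in the authors' deposited table lay between 0.537 and 0.769 (DESeq2 Wald test, Benjamini-Hochberg adjustment). The median of the 8 tested members was 0.54, and that of all 10 was 0.79.

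The list of eIF2 control holds the eIF2 kinases and their regulators, eIF2 and its exchange factor, and eIF2 phosphatase genes. Of its 19 genes, 5 were positive and 14 negative in the authors' deposited table, with a median log2 fold change of −0.21 beside −0.04 over all tested genes, of which 48.3% were positive. None had an adjusted p under 0.05, and 1 had an unadjusted p under 0.05 (DESeq2 Wald test), a share no higher than the 6.21% of all tested genes: Eif2ak3, the gene of the kinase PERK. Eif2ak3 had 229.9, 227 and 482 normalised reads in the positive libraries against 137, 165 and 144 in the negative libraries, with no overlap. Of the list's 18 genes with recovered reads, 1 was higher on the positive side without overlap and 2, Eif2b2 and Eif2b4, were lower. Over all 14422 tested genes with recovered reads, 672 were higher and 765 lower in this way. Its log2 fold change in the authors' deposited table was 1.07 (SE 0.45), with an unadjusted p of 0.0179 and an adjusted p of 0.667 (DESeq2 Wald test). The next by p-value were Eif2b4 (−0.65, SE 0.38) and Eif2b2 (−0.77, SE 0.57), subunits of the eIF2 exchange factor, and Ppp1cb (0.44, SE 0.33), a catalytic phosphatase subunit, in the authors' deposited table.

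The bZIP partner genes were spread on both sides, with 7 of 15 positive and 8 negative and a median of −0.03 for the log2 fold changes of the authors' deposited table. None had an adjusted p under 0.05. Of the 15, 2 had an unadjusted p under 0.05, 1 with each sign, where 6.21% of all tested genes did (DESeq2 Wald test). Cebpa had 384, 978 and 807 normalised reads on the positive side against 302, 535 and 256, and a log2 fold change of 0.99 (SE 0.42) in the authors' deposited table. Jund, a component of AP-1, had the opposite sign, with 180, 242 and 185 against 324, 242 and 578 normalised reads and −0.91 (SE 0.43) in the authors' deposited table. Nfe2l1 (0.49, SE 0.34) and Cebpg, a C/EBP partner of ATF4 (0.89, SE 0.64), came next in the authors' deposited table.

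Genes of protein folding and quality control in the endoplasmic reticulum, mostly chaperones, which mark the unfolded protein response branches that run through ATF6 and XBP1, had a median log2 fold change of −0.09 in the authors' deposited table, with 7 of 16 positive. None had an adjusted p under 0.05, and the 2 with an unadjusted p under 0.05 were both negative, where 3.53% of all tested genes were (DESeq2 Wald test). Hspa5, the chaperone BiP, stood at −0.99 (SE 0.36) with an unadjusted p of 0.00693 and an adjusted p of 0.533 in the authors' deposited table (DESeq2 Wald test). Pdia6, a disulfide isomerase, had 493, 645 and 434 normalised reads in the positive libraries against 1205, 528 and 952 in the negative libraries. Negative library 2 again lay near the positive libraries, and negative libraries 1 and 3 were the highest 2. The authors' deposited table gave Pdia6 −0.77 (SE 0.36), and Calr −0.49 (SE 0.26) and Pdia4 −0.64 (SE 0.39) came next.

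Several paralogs of the members had few reads. Of 8 tested, 5 were positive and 3 negative, and the median log2 fold change in the authors' deposited table was 0.66 over these 8 and 0.41 over all 9 with reads. None had an adjusted p under 0.05, and 1 of the 8 had an unadjusted p under 0.05, where 6.21% of all tested genes did (DESeq2 Wald test). It was Trib2, with 0, 14.2 and 22.9 normalised reads on the positive side and 0 in all 3 negative libraries. Ddit4l had 0, 2.03 and 0 against 19.8, 0 and 23.0, and Sesn3 had reads in positive library 2 only (16.2). Jdp2, a bZIP repressor related to ATF3, had 113, 221 and 269.7 in the positive libraries against 2.47, 234 and 66.2 in the negative libraries.

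The genes whose levels were most like those of Chac1 over the 6 libraries were sought among 8766 tested genes with a mean of at least 20 and recovered reads. Likeness was Pearson's r of log2(normalised reads + 1), a description over 6 libraries whose depth and cell composition enter every gene's values. The top 5 were Rgma (r 0.992), Hmox1 (0.981), Hibadh (0.976), Tmem201 (0.970) and Rad54l2 (0.962). Rgma, which encodes a membrane-bound guidance molecule, had 107, 153 and 96.0 normalised reads in the positive libraries against 40.8, 60.2 and 54.7 in the negative libraries. Hmox1, the haem-degrading enzyme induced by oxidative stress, had 136, 189 and 149 against 53.2, 95.9 and 69.1. In both, as in Chac1, positive library 2 was highest, negative library 1 lowest and the sides did not overlap. The search itself selects for such a shared order. Their differences were smaller than that of Chac1, with means 2.29-fold and 2.17-fold higher on the positive side. Hibadh, Tmem201 and Rad54l2 differed by 1.25-fold, 1.57-fold and 1.22-fold.

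Per kilobase of the longest coding transcript, Atf4 had the highest mean level of the 10 members in blastocysts, 509 normalised reads per kilobase. Its lowest library, at 316, was above the highest library of the next gene, Atf5, at 306. Below it the order was Atf5 (170.5), Ddit4 (153), Nupr1 (127), Sesn2 (113), Ddit3 (65.0), Trib3 (64.1), Chac1 (49.3) and Ppp1r15a (29.8), with Atf3 last at 0.41. In 7 of the 9 pairs of neighbours the ranges over libraries overlapped, the exceptions being Atf4 above Atf5 and Ppp1r15a above Atf3.

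In ES cells all 10 members had reads in every library and none passed the test. The authors' deposited table gave log2 fold changes from −0.33 (Atf5) to 0.16 (Trib3), 5 positive (50% of all tested genes were) and 5 negative, with a median of −0.01. None of the 10 had an adjusted p under 0.05, and none had an unadjusted p under 0.05 (DESeq2 Wald test), where 0.261% and 5.62% of all tested genes did. All 10 adjusted p-values were 1.00. The ES cell fold changes appear shrunken towards 0, since the members' standard errors lie between 0.22 and 0.33 over all levels, so their sizes cannot be set beside those of blastocysts, and a difference between the materials was not tested.

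Chac1 had 127 and 89.5 normalised reads in positive libraries 1 and 2 and 128 and 87.9 in negative libraries 1 and 2. The sides were level, with a log2 fold change of 0.01 (SE 0.29) in the authors' deposited table. Atf4 varied least, at 420 and 396 against 419 and 413. Trib3 had 180 and 162 against 178 and 121, and Ddit4 had 118 and 77.7 against 92.2 and 104. Neither gene had a library near 0, unlike in blastocysts. Atf3, nearly without reads in blastocysts, had 209 and 133 against 165 and 157 normalised reads in ES cells. Ddit3 had 35.1 and 43.5 against 37.1 and 38.7. For Atf5 the values were 46.3 and 26.3 against 72.3 and 35.8, the widest spread within a side (2.02 times on the negative side).

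Sesn2, Nupr1 and Ppp1r15a had sides that did not overlap, with the positive side lower. That is 3 of 10 members, where 20.5% of the 10471 tested genes with recovered reads showed that order, and no member was higher without overlap, where 20% were. Sesn2 had 273 and 233 normalised reads in the positive libraries against 326 and 306 in the negative libraries, with a log2 fold change of −0.27 (SE 0.23) and an unadjusted p of 0.243 in the authors' deposited table (DESeq2 Wald test). Nupr1 had 53.5 and 47.4 against 58.0 and 78.3, and −0.30 (SE 0.31) in the authors' deposited table. Ppp1r15a had 52.7 and 39.5 against 57.0 and 60.9, and −0.23 (SE 0.31) in the authors' deposited table. With 2 libraries on a side, such an order is common and none of the 3 passed the test.

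**Figure D4:**
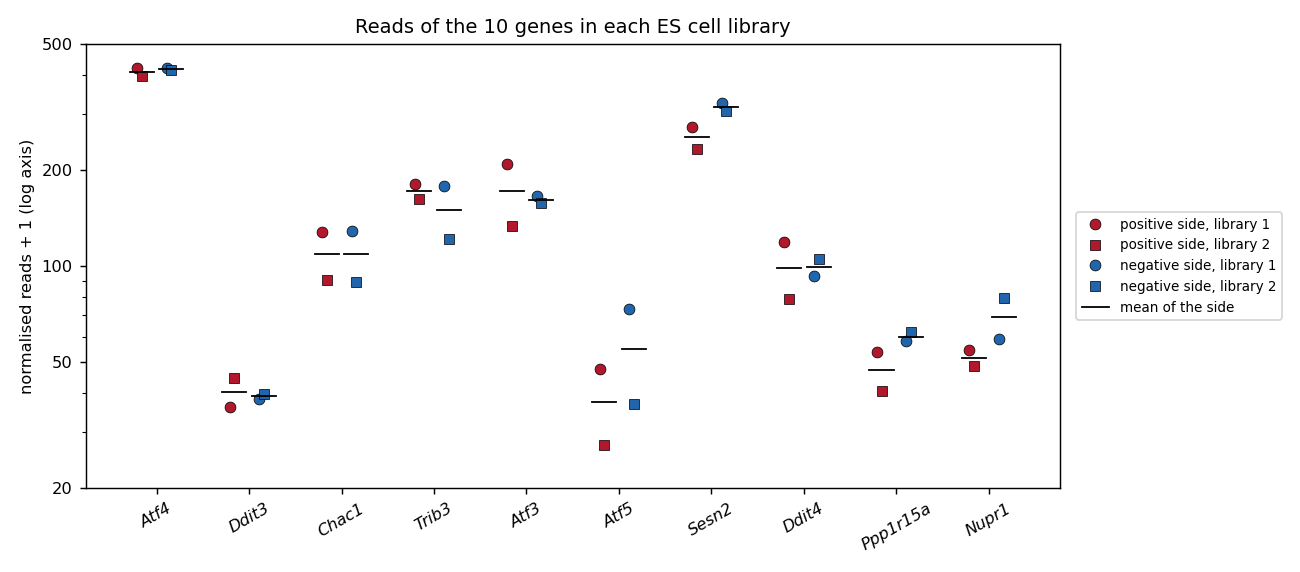
Normalised recovered reads plus 1 (log axis) of the 10 genes in the 4 ES cell libraries; red points are the positive side, blue points the negative side, and the line is the mean of the 2 libraries of a side. Atf4 lies between 396 and 420 in all 4 libraries, and Chac1 has nearly the same values on both sides.

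Per kilobase, Atf4 again had the highest mean in ES cells (239), above the highest library of every other member. Atf3 (83.7), Sesn2 (81.9), Trib3 (79.1), Nupr1 (71.5) and Chac1 (66.1) followed close together, then Ddit4 (55.9), Ddit3 (43.3), Atf5 (24.9) and Ppp1r15a (18.7). Ranges over libraries overlapped in 8 of the 9 neighbouring pairs. Normalised reads were scaled separately in each table, so levels are not compared across the materials.

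The other lists in ES cells gave no adjusted p under 0.05 in the authors' deposited table (DESeq2 Wald test). For the 36 other ATF4 targets, 14 were positive and 22 negative, the median log2 fold change was −0.04 beside −0.00 over all tested genes, and 0 had an unadjusted p under 0.05. The smallest p-values there belonged to Slc7a11, the cystine carrier (0.48, SE 0.27), Tnfrsf10b, a death receptor gene (−0.50, SE 0.32), Slc7a3 (−0.32, SE 0.22) and Stc2 (0.37, SE 0.29). Eif2b5, the catalytic subunit of the eIF2 exchange factor, had 256 and 332 normalised reads in the positive libraries against 518 and 471 in the negative libraries, with −0.65 (SE 0.23) and an unadjusted p of 0.0045 in the authors' deposited table (DESeq2 Wald test). It was the only 1 of 19 eIF2 control genes with an unadjusted p under 0.05, where 5.62% of all tested genes had one (DESeq2 Wald test). Eif2s2 (−0.42), Ppp1ca (−0.42) and Oma1 (0.43) came next, and the list's median was −0.05. No bZIP partner gene had an unadjusted p under 0.05, the median was −0.14, and Atf7 (−0.46), Jun (−0.43), Creb1 (0.34) and Fosl1 (−0.38) came first.

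Among paralogs in ES cells, Trib1 (34.3 and 26.3 against 70.4 and 59.9 normalised reads) and Sesn1 (27.9 and 18.4 against 51.3 and 51.2) were lower in both positive libraries. Their log2 fold changes in the authors' deposited table were −0.71 (SE 0.32) and −0.67 (SE 0.33), with unadjusted p-values of 0.0257 and 0.0390 and adjusted p-values of 0.726 and 0.841 (DESeq2 Wald test). These were 2 of 7 tested paralogs with an unadjusted p under 0.05, where 5.62% of all tested genes had one. Chac2 (0.33) and Ppp1r15b (−0.28) were next in the authors' deposited table, and the list's median over 7 tested genes was −0.28. Of the 16 genes of protein folding and quality control, 1 had an unadjusted p under 0.05, beside the same 5.62% (DESeq2 Wald test). This was Xbp1, which encodes a transcription factor and not a chaperone, at −0.61 (SE 0.31). Manf (−0.36), Dnajb9 (0.38) and Syvn1 (0.37) followed, with a median of −0.10 over the list in the authors' deposited table. Fibroblast markers were uneven between the ES cell libraries, whose cells grow on feeder fibroblasts: the 8 markers summed to 544 and 482 normalised reads in the positive libraries against 512 and 1971 in the negative libraries. The part of fibroblast RNA in the members' values was not tested.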

How the data were processed

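RNA sequencing of 12 labelled mouse samples was used as 2 deposited tables of results, 1 per material. Per the submitters' processing notes, the tools were STAR 2.4.0b, bedtools, SAMtools, featureCounts, Subread 2.0.1 and DESeq2 1.34.0, with the build GRCm38; roles and settings are not given in the sources used here. Per the file headers, the signal column holds the authors' mean of normalised reads, the log2 columns the authors' fold change on the log2 scale with its error, the score column the authors' Wald statistic, and the p-value columns the authors' p and adjusted p. These were used as deposited, as planned for tables without counts per sample; the number of columns of values per sample is 0.

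Reads per library were solved from the authors' means: the value of 1 read in each library was found from low means, and all whole-read solutions were listed. In blastocysts each solution was put through a negative binomial fit matched to the deposited standard error. A solution was kept if it alone gave back the deposited fold change. The kept solutions gave it back within 1e-12. In ES cells the mean alone had 1 solution. Of genes tried, 99.6% were solved in blastocysts and 10478 of 10479 in ES cells, up to a mean of 700 (1100 for list genes). Tested on simulated reads, 199 of 200 blastocyst genes were solved correctly and 0 wrongly, and 200 of 200 ES cell genes. The simulation left out the upper part of the solved means, such as that of Atf4 in blastocysts (878), and did not draw reads in pairs. The accuracy under those conditions was not tested. Solved reads are not molecules, so floors (3 reads, or 3 pairs in blastocysts) cover counting error only. Normalised reads are reads divided by the size factor, from 0.695 to 1.62 in blastocysts and 0.759 to 1.25 in ES cells. No p-value was computed over libraries.

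A gene counted as past the threshold at an authors' adjusted p under 0.05. Coordinates are those of the blastocyst table. The members and gene lists were chosen with earlier results of these data known. Named were all members, per table and other list up to 4 genes with the smallest p-value, and the 5 genes most like Chac1; others are said to be named after their values were seen. Alternatives were pseudocounts of 1 and 0.1 on the ratio of recovered reads, a mean of at least 50, and leaving out each library. Python 3.11.15, numpy 2.4.6, pandas 2.3.3, numba 0.67.0, sympy 1.14.0 and matplotlib 3.10.9 were used.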

Additional observations from a re-analysis of the deposited data

How the results depend on the processing

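The number of members past the threshold, 1 in blastocysts and 0 in ES cells, was the same with a mean of at least 50. The members' median log2 fold change in blastocysts in the authors' deposited table, 0.79 over all 10, was 0.63 with a mean of at least 50. The median log2 ratio of the recovered reads was 0.78 with all libraries. It ran from 0.44 to 1.82 over the leave-outs of 1 library, and the highest value came without negative library 2. In ES cells the deposited median was −0.01, and the median ratio of the recovered reads was −0.016 with all libraries. That ratio ran from −0.30, without positive library 1, to 0.0033 without negative library 1. The count of pathway list genes with an unadjusted p under 0.05 in ES cells fell from 4 to 2 with a mean of at least 50, since fewer genes were then tested, and in blastocysts it was 10 and 9. No called value changed sign. Among uncalled members, leaving out 1 library changed the sign of Nupr1 and Sesn2 in blastocysts and of 7 of the 10 members in ES cells. Atf3 in blastocysts rests on 6 reads, and its ratio moved with the pseudocount from 1.39 (1) to 4.11 (0.1). No paired analysis was possible because the tables carry no replicate numbers. Genes whose reads were not solved, 8 of the 36 expressed ATF4 targets among them, have no value per library, so the orders over libraries do not cover them.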

Other observations

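The genes whose levels over the 6 blastocyst libraries were most like those of Atf5, a search chosen after the data were seen, were Hook2 (Pearson's r 0.998 over 6 libraries, 8767 genes compared) and Glb1l2 (0.998), followed by A930004J17Rik, RP23-378O9.1 and Maml3. Hook2, which encodes a linker of organelles to microtubules, had 440, 546 and 576 normalised reads in the positive libraries against 233, 555 and 256 in the negative libraries. Glb1l2, a galactosidase-like gene, had 15.7, 54.8 and 43.4 against 0, 55.7 and 0. In both genes, as in Atf5, Trib3 and Ddit4, negative libraries 1 and 3 were lowest and negative library 2 was level with the positive side. The search for likeness to Atf5 selects for this order. Cebpb, a bZIP partner of ATF4 without a p-value in the authors' deposited table, had 14.3, 22.3 and 9.14 against 3.71, 107 and 0 normalised reads, so its highest library by far was negative library 2.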
